A study of Homo sapiens with 12 samples.

Results

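The response of sebocytes carrying an siRNA against OLR1 to ultraviolet-oxidised phospholipid was read from 6 arrays, as the UV-PAPC arrays minus the untreated arrays. Its members were the 18417 genes with a probe set assigned to a single gene symbol, each represented by its probe set with the highest mean signal. They came from 33297 entries of the table. All 18417 genes were measured on the 6 arrays, and the same genes were measured on the 12 arrays of the series.

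The cells were SZ95, an immortalised line of human sebocytes, the lipid-producing cells of the sebaceous gland. Both groups received siRNA against OLR1 by lipofection with lipofectamine 2000 in Sebomed medium. At 24 h after transfection the samples of 3 arrays received PAPC that had been oxidised under ultraviolet light (UV-PAPC), at 25 µg/ml, and those of 3 received no treatment, so n = 3 for each group. A further 6 arrays carried scramble siRNA, 3 untreated and 3 with UV-PAPC, and entered as the most similar comparison. The labels name neither a vehicle, nor unoxidised PAPC, nor untransfected cells, so a rise or fall here is relative to cells given only the siRNA. SZ95 is a single line. The siRNA sequence and how long the lipid stayed on the cells are not stated in the labels.

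PAPC is a membrane phosphatidylcholine whose arachidonic acid chain is easily oxidised, which yields a mixture that includes electrophilic products. Electrophiles modify cysteines of KEAP1, which releases the transcription factor NRF2 to induce genes of glutathione synthesis, redox repair and heme breakdown. Unfolded or modified proteins free the transcription factor HSF1 from chaperones and so induce the heat shock proteins. OLR1 encodes LOX-1, a scavenger receptor for oxidised low-density lipoprotein, and the labels pair its siRNA with UV-PAPC and with no treatment.

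OLR1 itself read 4.66, 4.38 and 4.48 on the log2 scale in the untreated arrays and 4.47, 4.33 and 4.41 with UV-PAPC. The groups overlapped, and the change was -0.10 (SE 0.18, 95% interval -0.48 to 0.28, adjusted p = 0.837). Against scramble siRNA, OLR1 was lower by a log2 difference of -1.19 in untreated cells (adjusted p = 0.000484) and -1.40 with UV-PAPC (adjusted p = 0.000162). The scramble arrays were uneven, at 6.18, 5.56 and 5.35 untreated and 6.19, 5.49 and 5.74 with UV-PAPC. The response described here is therefore that of cells with less OLR1 mRNA than the scramble cells.

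The arrays were alike in scale, with median log2 signals of 5.73 to 5.83 over all 12, and correlations of 0.996 to 0.998 within groups. Of 18 measured sebocyte markers, PLIN2 and ELOVL5 rose, GATA6, PPARG and MUC1 fell, and 13 did not pass the test. MUC1 passed in 1 of the 6 fits that left out an OLR1 siRNA array, and did not pass with arrays centred on their medians, after a repeated quantile normalization or after cyclic loess. The mean log2 signal of the 18 was 8.29 to 8.37 on the 6 arrays, and the simple-epithelial keratin KRT7 read 11.03 to 11.24. The sebaceous genes AWAT2 (3.89 to 4.19) and MC5R (4.11 to 4.30) read low, while the basal keratin KRT5 read 11.29 to 11.45, so these markers alone do not separate sebocytes from keratinocytes. None of the measured markers of keratinocytes (10), fibroblasts (16), melanocytes (7), leukocytes (10) or endothelium (10) passed the test. The fibroblast list had mean signals of 5.41 to 5.50, the melanocyte list 4.86 to 4.94, the leukocyte list 4.95 to 5.12 and the endothelial list 4.78 to 4.91 over the 6 arrays. Within the endothelial list PECAM1 read 3.96 to 4.05 and CDH5 8.28 to 8.67, so that list was not low throughout. On this scale no signal is 0, and a low value is not evidence of absence.

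UV-PAPC changed 1236 of 18417 genes at an adjusted p under 0.05, which was 6.71% of those tested. Of these, 638 rose (3.46%) and 598 fell (3.25%). The rises reached further: 33 genes rose at least 2-fold against 3 that fell that far, and 122 against 69 passed 1.5-fold. The median log2 change was 0.40 among the rises and -0.37 among the falls, beside -0.01 over all genes. The 3 UV-PAPC arrays lay wholly above the 3 untreated ones for 10.9% of all genes and wholly below them for 12.8%, and this held for 637 of the rises and 594 of the falls. Without UV-PAPC replicate 1 the rises numbered 422, and without untreated replicate 1 the falls numbered 390. All 33 rises and all 3 falls of at least 2-fold passed the test whichever of the 6 arrays was left out. Smaller changes were less stable: of 276 called members of the gene and marker lists, 195 passed in each of these 6 leave-one-out fits and 81 missed the threshold in at least 1, which is stated where such a gene is named.

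**Figure D1:**
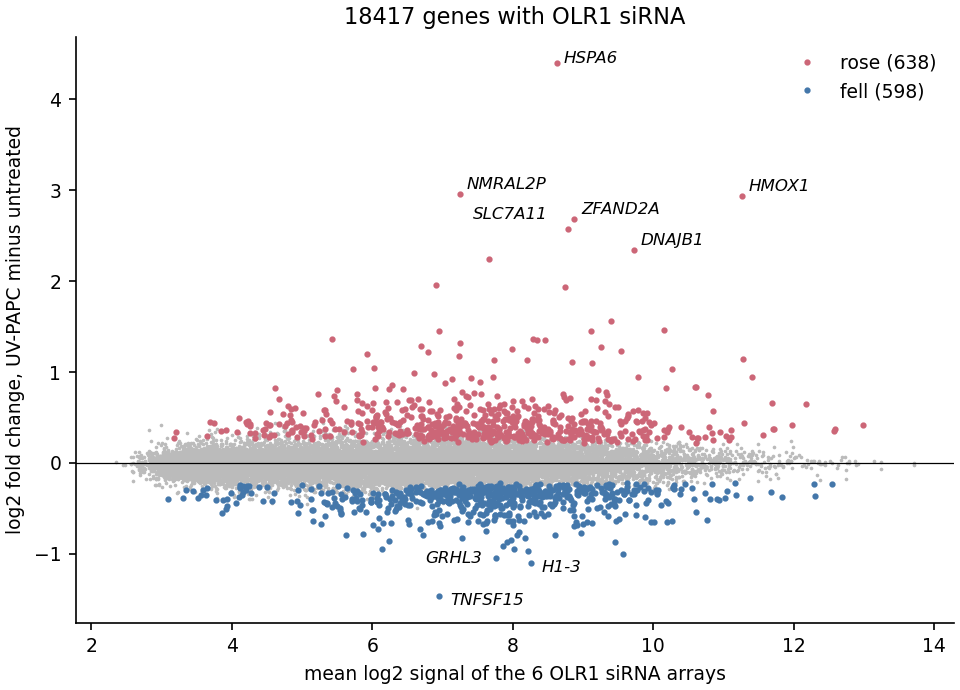
Log2 fold change of each of 18417 genes, UV-PAPC minus untreated with OLR1 siRNA, against the mean log2 signal of the 6 arrays. Red points are the 638 genes that rose and blue points the 598 that fell, grey points did not pass the test, and the rises reach 4.40 (HSPA6) while the falls end at -1.47 (TNFSF15).

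The leading gene was HSPA6, an Hsp70 chaperone that is scarcely made without stress. It read 6.60, 6.38 and 6.29 in untreated cells and 11.02, 10.88 and 10.56 with UV-PAPC. The groups lay far apart, and the rise was 4.40 on the log2 scale, or 21.1-fold (SE 0.12, adjusted p = 2.86e-12). HSPA6 may share probe signal with related Hsp70 genes, which was not checked, so part of its signal may be theirs. HSPA1A and HSPA1B were not analysed here. HSPA4L, an Hsp110-type chaperone, moved from 8.30, 8.45 and 8.40 to 9.96, 9.75 and 9.78, a rise of 1.45 (SE 0.08, adjusted p = 5.56e-09). HSPH1, the main Hsp110 that recharges Hsp70 with ATP, moved from 10.67, 10.71 and 10.74 to 11.89, 11.88 and 11.80, a rise of 1.15 (SE 0.07, adjusted p = 5.84e-08). In both genes the 3 treated arrays lay above every untreated one. The constitutive HSPA8 rose by 0.42 and the mitochondrial HSPA9 by 0.28, though HSPA9 did not pass without untreated replicate 1, untreated replicate 2 or UV-PAPC replicate 1. Of 14 measured Hsp70 and Hsp110 genes 10 rose and 0 fell, with a list median of 0.43. HSPA5, the Hsp70 of the endoplasmic reticulum, had a log2 change of 0.12 (adjusted p = 0.373).

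J-domain proteins hand clients to Hsp70 and start its ATP cycle. DNAJB1, the cytosolic J-domain partner of Hsp70 in disaggregation, read 8.65, 8.61 and 8.39 untreated and 11.09, 10.81 and 10.78 with UV-PAPC, a 5.08-fold rise (log2 2.35, SE 0.10, adjusted p = 4.29e-10). DNAJB4 rose 4.75-fold, from 6.39, 6.66 and 6.57 to 8.96, 8.74 and 8.67 (log2 2.25, SE 0.11, adjusted p = 1.57e-09). DNAJA4 rose 3.83-fold, from 7.74, 7.77 and 7.82 to 9.87, 9.64 and 9.63 (log2 1.94, SE 0.09, adjusted p = 1.76e-09). In all 3 genes UV-PAPC replicate 1 was the highest of the treated arrays, and the groups did not overlap. DNAJA1 rose by 0.83 and DNAJB6, which suppresses aggregation, by 0.68. In all, 10 of 28 measured J-domain genes rose and 0 fell, and the list median of 0.11 shows that most of the family moved little.

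Of 20 measured genes of the Hsp90 machinery and the exchange factors 12 rose and 0 fell, with a median of 0.41. BAG3, an exchange factor that routes Hsp70 clients to autophagy, went from 9.46, 9.35 and 9.44 to 10.96, 10.85 and 10.84 (log2 1.47, SE 0.07, adjusted p = 9.81e-10). CHORDC1, an Hsp90 co-chaperone, went from 8.84, 8.91 and 9.01 to 10.12, 10.27 and 10.08 (log2 1.24, SE 0.11, adjusted p = 2.13e-06). CACYBP, which binds the ubiquitin ligase factor SIAH1, rose by 1.03 and the inducible HSP90AA1 by 0.65, both without overlap between the groups. Its constitutive paralog HSP90AB1 rose by 0.42. Among the small heat shock proteins, chaperonins and the collagen chaperone, 9 of 17 rose and 0 fell. HSPB8, the small heat shock partner of BAG3, went from 8.67, 8.50 and 8.69 to 10.02, 9.76 and 9.92, a rise of 1.28. SERPINH1, the collagen chaperone of the endoplasmic reticulum, rose by 0.82, the mitochondrial chaperonin HSPD1 by 0.66 and its lid HSPE1 by 0.56. The heat shock factor HSF1 had a log2 change of 0.06 (adjusted p = 0.697), and 0 of 4 measured heat shock factors and regulators passed the test.

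The promoters of these genes were searched for a heat shock element, the site at which heat shock factors bind, written as GAA, TTC and GAA in that order with any 2 bases between neighbours, or TTC, GAA and TTC on the other strand. They were also searched for the core of the antioxidant response element, the site of NRF2 with its small MAF partners, written TGACNNNGC or, on the other strand, GCNNNGTCA. Windows ran from 250 bases before to 50 after the RefSeq start of each gene, build GRCh38.p14, and existed for 14237 of the 18417 genes. Shown are the promoters of HSPA6 and ZFAND2A, the genes among the 10 highest rises whose window held a motif, and that of CHORDC1, chosen after its values were seen because its heat shock elements overlap. Each runs 5′ to 3′ on the strand of the gene, with the matched letters in capitals. HSPA6 lies at chr1:161524290-161524589 on the plus strand, ZFAND2A at chr7:1160147-1160446 on the minus strand and CHORDC1 at chr11:90223000-90223299 on the minus strand.
HSPA6: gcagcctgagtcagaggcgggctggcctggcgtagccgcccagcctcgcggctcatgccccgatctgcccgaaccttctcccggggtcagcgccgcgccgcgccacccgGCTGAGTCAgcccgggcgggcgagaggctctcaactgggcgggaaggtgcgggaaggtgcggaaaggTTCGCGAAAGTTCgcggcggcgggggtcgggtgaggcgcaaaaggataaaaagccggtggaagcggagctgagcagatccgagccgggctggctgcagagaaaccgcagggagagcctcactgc
ZFAND2A: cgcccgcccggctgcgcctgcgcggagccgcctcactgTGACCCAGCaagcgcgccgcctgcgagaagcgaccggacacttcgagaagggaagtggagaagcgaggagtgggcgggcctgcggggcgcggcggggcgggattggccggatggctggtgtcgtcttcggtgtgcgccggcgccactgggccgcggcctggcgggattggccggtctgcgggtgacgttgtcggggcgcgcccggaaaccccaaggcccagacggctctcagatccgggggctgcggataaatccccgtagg
CHORDC1: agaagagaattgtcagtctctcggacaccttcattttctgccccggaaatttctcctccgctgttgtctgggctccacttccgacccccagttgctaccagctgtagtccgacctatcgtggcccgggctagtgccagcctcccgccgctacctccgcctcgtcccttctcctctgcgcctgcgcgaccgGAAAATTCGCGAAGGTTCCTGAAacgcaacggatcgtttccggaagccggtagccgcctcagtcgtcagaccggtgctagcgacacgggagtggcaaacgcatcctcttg

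In the HSPA6 window the heat shock element TTCGCGAAAGTTC began at -74 from the start and the antioxidant core GCTGAGTCA at -141. ZFAND2A held the core TGACCCAGC at -212, and no match to the heat shock motif as spelled. CHORDC1 held 3 overlapping heat shock matches, beginning at -60, -55 and -50. Over all 14237 windows the heat shock motif occurred in 58, or 0.407%, and it occurred in 2 of the 27 windows of genes that rose at least 2-fold (7.41%). It was in 13 of 505 windows of rising genes (2.57%) and in 0 of 448 windows of falling genes. Read from the motif, 13 of its 58 genes rose, 22.4% beside 3.55% of all genes with a window. Those 13 were HSPA6, CHORDC1, DNAJA1, SERPINH1, DNAJB6, ABHD3, DOCK10, FLJ42627, HSPA8, RBM23, PHF8, ZNF83 and APTX. The antioxidant core was common, in 14.6% of windows, in 29.6% of those of genes that rose at least 2-fold, in 23.0% of those of all rising genes and in 12.3% of those of falling genes. These are letter matches and no test was made of them. Windows for HMOX1, SLC7A11, NMRAL2P and EID3 were not in the table used.

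Some genes that tag or degrade damaged proteins also rose. ZFAND2A, an arsenite-inducible protein that associates with the proteasome, went from 7.80, 7.42 and 7.35 to 10.50, 10.17 and 9.97, a 6.45-fold rise (log2 2.69, SE 0.15, adjusted p = 1.4e-08). Its untreated and treated arrays were both spread, with replicate 1 highest in each, and did not overlap. SQSTM1, the autophagy receptor p62, rose by 0.74, from 10.40, 10.35 and 10.47 to 11.20, 11.06 and 11.20. Of 11 measured genes of ubiquitin and aggregate handling 7 rose and 0 fell, among them the polyubiquitin gene UBB by 0.36 and the segregase VCP by 0.25, which passed in 0 of the 6 leave-one-out fits. Of 32 proteasome genes 7 rose and 0 fell: PSMC6 by 0.46, PSMD12 by 0.45, PSMB5 by 0.38, PSMD3 by 0.37, PSMD14 by 0.34, PSMC4 by 0.33 and PSMC1 by 0.29. The proteasome shift was small and broad, with a list median of 0.16, 30 of 32 genes above 0 and 25 with the UV-PAPC arrays wholly above the untreated ones, beside 10.9% of all genes. With a trended and robust variance the count was 13. PSMC1 passed in 2 of the 6 leave-one-out fits, and PSMC4 did not pass without untreated replicate 2.

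**Figure D2:**
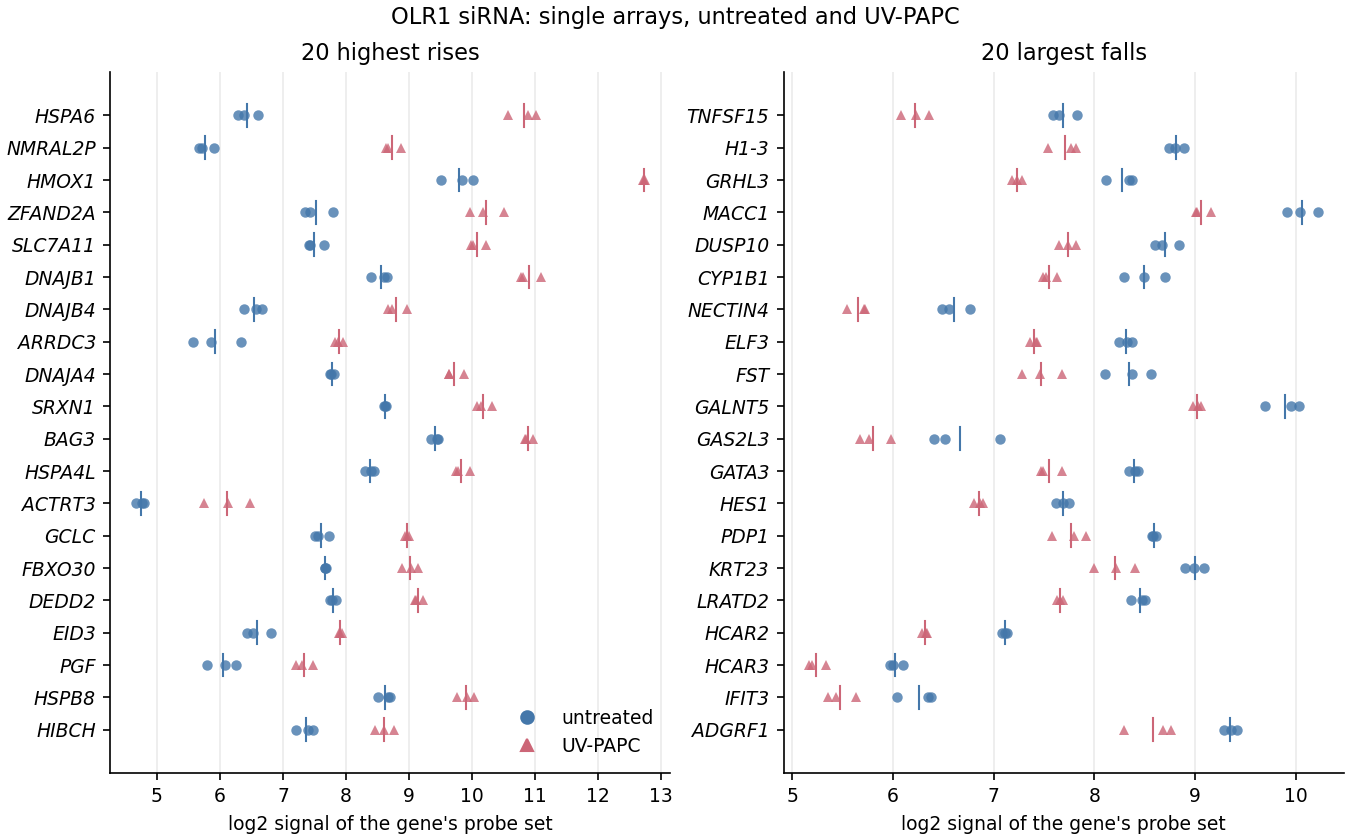
Log2 signal of single arrays with OLR1 siRNA for the 20 genes with the highest rises (left) and the 20 with the largest falls (right). Blue circles are the 3 untreated arrays, red triangles the 3 UV-PAPC arrays and vertical bars the group means, and the groups do not overlap for any of the 40 genes because the naming rule required it.

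The NRF2 genes formed the other large group of rises. HMOX1, heme oxygenase 1, which breaks heme down to biliverdin, iron and carbon monoxide, read 9.84, 9.50 and 10.01 untreated and 12.74, 12.70 and 12.73 with UV-PAPC. The treated arrays lay within a narrow range far above the untreated ones, and the rise was 7.67-fold (log2 2.94, SE 0.10, adjusted p = 2.07e-11). SLC7A11, the cystine importer, read 7.42, 7.42 and 7.64 and then 10.21, 10.02 and 9.99, a 5.98-fold rise (log2 2.58, SE 0.09, adjusted p = 1.68e-11). Cystine is reduced to cysteine, the limiting amino acid of glutathione. GCLC, the catalytic subunit of the ligase that joins cysteine to glutamate, read 7.50, 7.73 and 7.56 untreated and 8.96 ± 0.04 (SD, n = 3) with UV-PAPC, without overlap, a 2.57-fold rise (log2 1.36, SE 0.09, adjusted p = 1.12e-07). Its modifier subunit GCLM rose by 0.95, glutathione reductase GSR by 0.61 and SLC3A2, the heavy chain that partners SLC7A11, by 0.57. In the list of cystine import and glutathione 7 of 15 rose and 0 fell, with a median of 0.38.

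Of 17 thioredoxin and peroxiredoxin genes 3 rose (17.6%, beside 3.46% of all genes) and 0 fell. SRXN1, sulfiredoxin, which repairs over-oxidised peroxiredoxins, read 8.61, 8.64 and 8.60 and then 10.32, 10.07 and 10.15 (log2 1.56, SE 0.07, adjusted p = 1.57e-09). TXNRD1, thioredoxin reductase 1, rose by 0.95 and TXNL1 by 0.36. The count for this list was 5 with a trended and robust variance and 5 among the genes above the median signal. Of 9 NADPH-supplying genes the malic enzyme ME1 alone passed the test (11.1%), with a rise of 0.45. In heme and iron handling HMOX1 and the ferritin light chain FTL (0.84) rose, the metalloreductase STEAP4 (-0.64) and the iron transporter SLC11A2 (-0.29) fell, and 14 of 18 did not pass the test. SLC11A2 passed in 1 of the 6 leave-one-out fits, and neither with the 6 arrays alone nor with a replicate block. Of the heme and iron list 11.1% rose and 11.1% fell, beside 3.46% and 3.25% of all genes.

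Detoxifying enzymes and exporters gave 10 rises and 0 falls among 25 measured genes, with a median of 0.23. CYP4F11, a fatty acid hydroxylase, rose by 1.23 and the aldo-keto reductase AKR1C3 by 1.20. PTGR1, which reduces unsaturated aldehydes and ketones, rose by 0.76, UGDH, which makes UDP-glucuronate, by 0.65, and NQO1, a quinone reductase, by 0.37. The AKR1C genes may share probe signal, which was not checked. AKR1C1 read 4.55, 4.91 and 4.97 and then 5.37, 5.02 and 5.12, without overlap but not past the test (log2 0.36, adjusted p = 0.186).

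Some partners and inhibitors of NRF2 rose, while NRF2 mRNA did not pass the test. NFE2L2, the NRF2 gene, read 10.09, 10.06 and 10.07 and then 10.10, 9.96 and 10.05 (log2 -0.03, SE 0.06, adjusted p = 0.841), and the groups overlapped. NMRAL2P, a transcribed pseudogene known as an NRF2 target, read 5.66, 5.72 and 5.91 and then 8.87, 8.63 and 8.67, a 7.78-fold rise (log2 2.96, SE 0.10, adjusted p = 1.68e-11). MAFG, a small MAF partner of NRF2, rose by 0.74 and MAFF by 0.40. Among proteins that restrain NRF2, the repressor BACH1 rose by 0.44 and the adaptor KEAP1 by 0.26, which passed in 1 of the 6 leave-one-out fits. OSGIN1, an oxidative stress growth inhibitor, went from 6.54, 6.67 and 6.71 to 7.94, 7.79 and 7.71, a rise of 1.17. In all 6 of 12 measured regulators rose and 0 fell.

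Other stress pathways are read here beside the 3.46% of all genes that rose. Of 34 genes of the ATF4 integrated stress response, which senses amino acid shortage and other insults, the phosphatase subunit PPP1R15A rose (0.52), the glycine transporter SLC6A9 fell (-0.29), and 32 did not pass the test. The stress factors DDIT3 (log2 0.33, adjusted p = 0.0853) and ATF3 (-0.04, adjusted p = 0.875), the pseudokinase TRIB3 (0.29, adjusted p = 0.0528) and the asparagine synthetase ASNS (0.18, adjusted p = 0.307) were among those. SLC6A9 passed in 0 of the 6 leave-one-out fits, and neither with arrays centred on their medians nor with a replicate block. With a trended and robust variance, and among genes above the median signal, 4 genes of this list rose. SLC7A11 (2.58), SLC3A2 (0.57) and CTH (0.47), which rose, were counted in the cystine and glutathione list and not here. The count therefore depends on how the lists were drawn, and which factor moved these genes was not tested. Among 26 XBP1 targets and chaperones of the endoplasmic reticulum, HERPUD1 (0.55) and DNAJB9 (0.44) rose, which was 7.69%. DNAJB9 passed in 2 of the 6 leave-one-out fits. The median untreated signal of this list was 8.94. Of the 4604 genes with the highest mean signal (from 7.82), 286 rose, a larger share than 3.46%. The share of all genes is thus a low comparator for this list. Of 27 autophagy genes 4 rose (14.8%), GABARAPL1 by 1.13, SQSTM1 by 0.74, MAP1LC3B by 0.40 and ATG12 by 0.34, and 2 did so without UV-PAPC replicate 1. MAP1LC3B and ATG12 each passed in 2 of the 6 leave-one-out fits, while GABARAPL1 was 1 of the 33 rises of at least 2-fold. None of the 17 measured metallothionein and zinc genes passed the test.

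Among the remaining large rises, ARRDC3, an alpha-arrestin that adapts membrane receptors to ubiquitin ligases, rose 3.89-fold, from 5.86, 6.34 and 5.58 to 7.96, 7.87 and 7.82 (log2 1.96, SE 0.13, adjusted p = 1.35e-07). Of the other measured alpha-arrestins ARRDC4 rose (0.44), and TXNIP, the inhibitor of thioredoxin (-0.44), and ARRDC1 (-0.33) fell. ARRDC1 passed in 2 of the 6 leave-one-out fits. ACTRT3, an actin-related gene, showed the widest treated spread of the 20 highest rises in the plot of leading genes, from 4.76, 4.80 and 4.67 to 6.47, 6.12 and 5.74 (log2 1.37, SE 0.16, adjusted p = 4.73e-05). FBXO30, a substrate receptor of a ubiquitin ligase, rose by 1.35, DEDD2, which carries a death effector domain, by 1.35, and EID3, a subunit of the SMC5/6 complex, by 1.32. PGF, placental growth factor, rose by 1.28 and HIBCH, an enzyme of valine breakdown, by 1.25. DUSP1, a phosphatase of p38 and JNK, rose by 1.10, from 8.58, 8.55 and 8.58 to 9.75, 9.72 and 9.53.

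**Figure D3:**
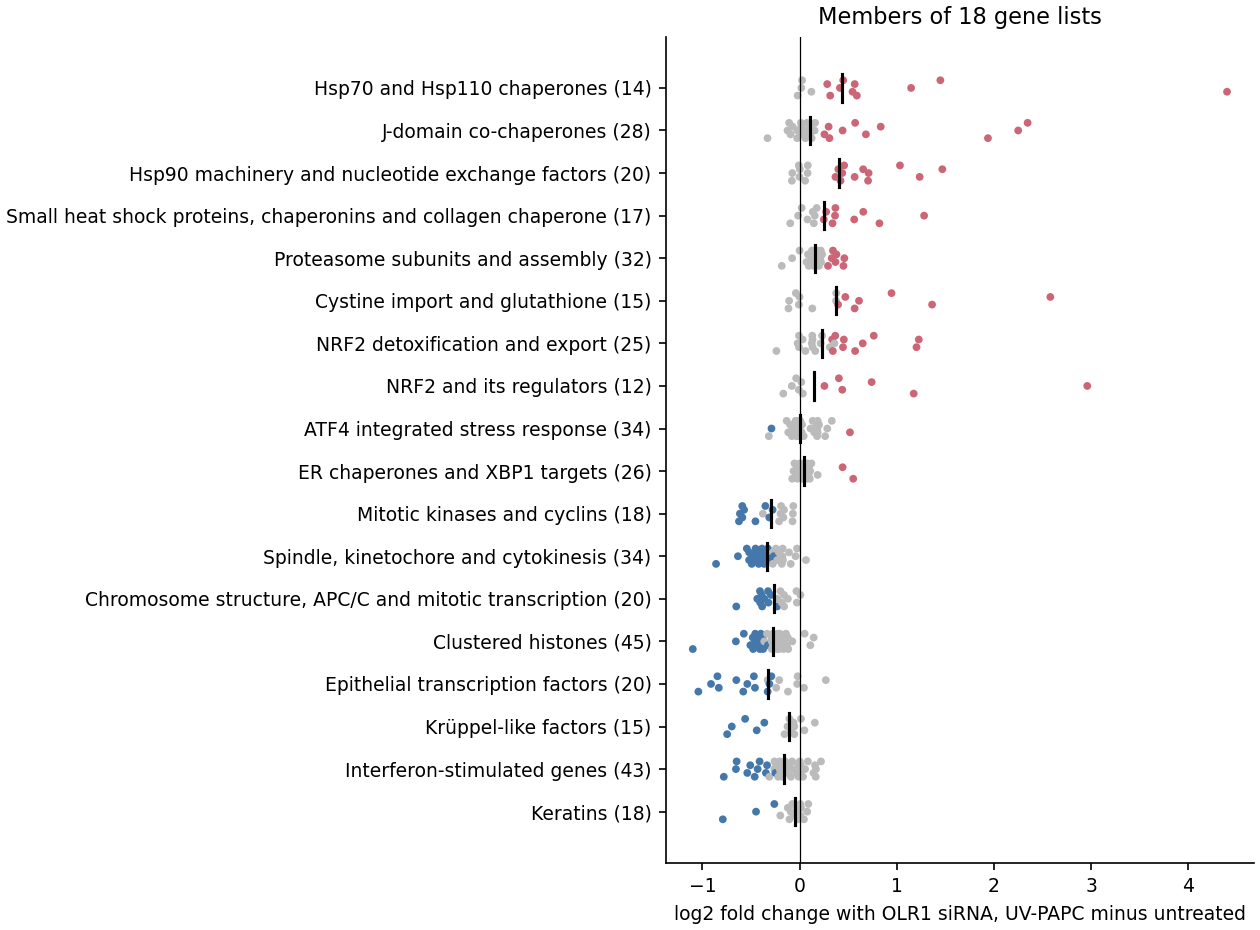
Log2 fold change with OLR1 siRNA, UV-PAPC minus untreated, of each measured member of 18 gene lists, with the number measured in brackets. Red members rose, blue members fell, grey did not pass the test and the black bar is the list median, which is highest for the Hsp70 list (0.43) and lowest for the spindle list (-0.33).

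Many genes of cell division fell. PLK1, the polo kinase of mitotic entry, read 11.06, 11.13 and 11.02 untreated and 10.40, 10.35 and 10.59 with UV-PAPC, a change of -0.62 (SE 0.08, adjusted p = 7.99e-05). AURKA, which builds the spindle poles, read 9.83, 9.83 and 9.80 and then 9.18, 9.15 and 9.29 (log2 -0.61, SE 0.06, adjusted p = 1.08e-05). TOP2A, which untangles replicated DNA, read 10.27, 10.37 and 10.23 and then 9.64, 9.63 and 9.66 (log2 -0.65, SE 0.07, adjusted p = 2.26e-05). In each the 3 treated arrays lay below all 3 untreated ones. The cyclins CCNB1 (-0.59) and CCNB2 (-0.59) and the proliferation antigen MKI67 (-0.39) fell as well. In bulk RNA, fewer dividing cells and less mitotic mRNA per cell cannot be told apart.

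Of 18 mitotic kinases and cyclins 9 fell and 0 rose, with a median of -0.29. Of 34 spindle, kinetochore and cytokinesis genes 20 fell and 0 rose, with a median of -0.33, and 29 had the UV-PAPC arrays wholly below the untreated ones, beside 12.8% of all genes. GAS2L3, which links actin and microtubules in cytokinesis, had the lowest value of that list, from 6.52, 7.07 and 6.41 to 5.99, 5.67 and 5.76 (log2 -0.86). The kinesins KIF20A (-0.63) and KIF23 (-0.54) of the midbody and the kinetochore motor CENPE (-0.52) also fell. Of 20 genes of chromosome structure, the anaphase-promoting complex and mitotic transcription 11 fell and 0 rose, and 7 fell without untreated replicate 2 or without UV-PAPC replicate 2. In G1/S and DNA replication 6 of 37 fell, the cyclin CCND1 by a log2 change of -0.47 and the repressor E2F8 by -0.63 among them, and ORC6 rose (0.36). That count was 3 falls without untreated replicate 1 or 2, and ORC6 did not pass without either of them or without UV-PAPC replicate 1. The inhibitor CDKN1A had a log2 change of 0.15 (adjusted p = 0.231), and of 27 CDK inhibitors and p53 targets 0 rose and 3 fell (BTG1 -0.40, PLK3 -0.32 and PLK2 -0.28). PLK3 passed in 2 and PLK2 in 0 of the 6 leave-one-out fits, so 1 to 2 fell in these. The shares that fell were 16.2% of the G1/S list and 11.1% of the inhibitor and p53 list, beside 3.25% of all genes.

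Clustered histone genes, whose mRNAs are made mainly in S phase, gave 17 falls and 0 rises among 45 measured members. The linker histone H1-3 fell by 1.10 on the log2 scale, from 8.74, 8.89 and 8.80 to 7.77, 7.55 and 7.82 (SE 0.08, adjusted p = 1.94e-07), and was 1 of the 3 genes to fall at least 2-fold. H2BC14 changed by -0.65 and H3C12 by -0.57. The list's mean signal was 7.60, 7.61 and 7.67 on the untreated arrays and 7.29, 7.25 and 7.45 on the treated ones. Of the treated arrays replicate 3 lay nearest the untreated group. Without UV-PAPC replicate 2 the falls numbered 11. Clustered histone genes are alike and may share probe signal, which was not checked, so the members cannot be taken as independent of each other.

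**Figure D4:**
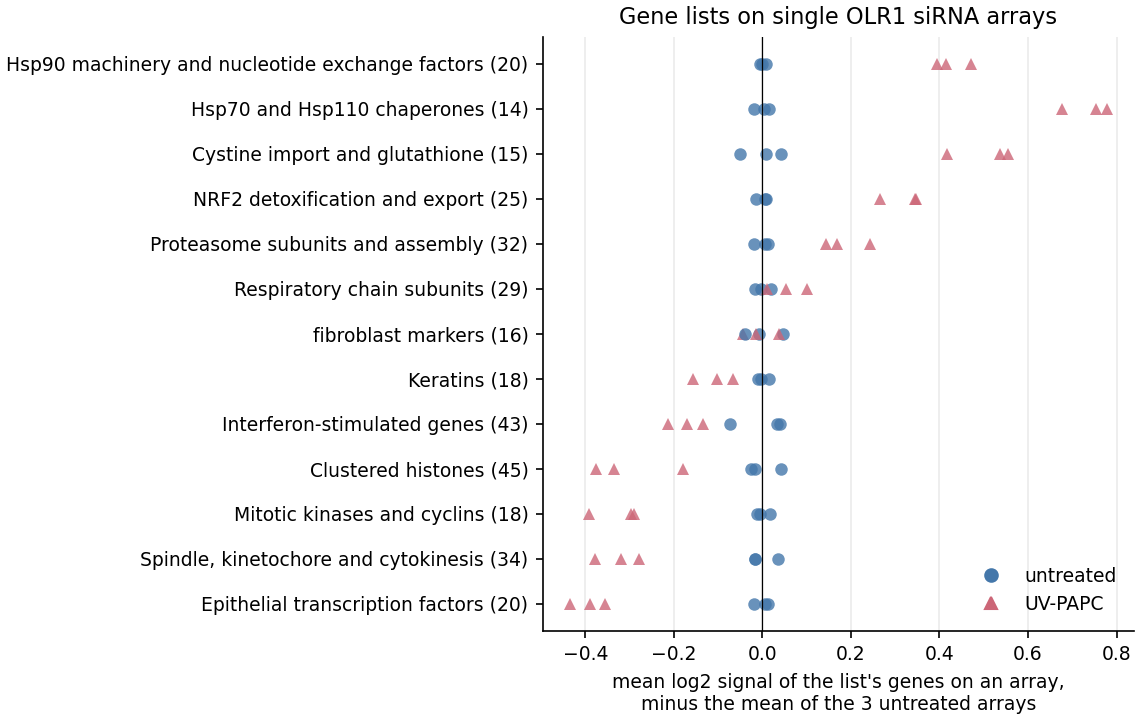
Mean log2 signal of 13 lists on each OLR1 siRNA array, minus the mean of the 3 untreated arrays, with the number of measured genes in brackets. Blue circles are untreated and red triangles UV-PAPC arrays, and the circles and triangles are apart for the chaperone, glutathione, histone, mitotic and epithelial factor lists but mixed for the fibroblast markers.

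The gene with the largest fall was TNFSF15, the TNF family ligand TL1A. It read 7.65, 7.83 and 7.59 untreated and 6.08, 6.23 and 6.36 with UV-PAPC, a 2.76-fold fall (log2 -1.47, SE 0.09, adjusted p = 4.52e-08). Of 27 TNF superfamily genes 4 fell: TNFSF15, the osteoprotegerin gene TNFRSF11B (-0.64), the TRAIL gene TNFSF10 (-0.47) and TNFRSF19 (-0.33). The TRAIL receptor TNFRSF10A (0.49) and TNFSF9 (0.31) rose. Thus 14.8% of this list fell and 7.41% rose, beside 3.25% and 3.46% of all genes. Without UV-PAPC replicate 2 the falls numbered 2. TNFSF10 passed in 3 of the 6 leave-one-out fits and TNFRSF19 and TNFSF9 in 2 each. TNFSF10 did not pass after a repeated quantile normalization or cyclic loess or with the 6 arrays alone, nor did TNFSF9 with array weights or the 6 arrays alone. Of 36 interleukins, chemokines and antagonists 5 fell (13.9%) and 0 rose: LIF (-0.76), IL24 (-0.72), IL1B (-0.43), CXCL11 (-0.37) and the antagonist IL1RN (-0.34). Among genes above the median signal 3 of the list fell, and IL1RN did not pass without untreated replicate 1. LIF, a cytokine of the interleukin 6 family, moved from 8.59, 8.31 and 8.52 to 7.73, 7.57 and 7.83, without overlap. CXCL8, the neutrophil attractant, read 6.95, 7.12 and 7.05 and then 7.24, 7.41 and 7.26, which do not overlap but did not pass the test (log2 0.26, adjusted p = 0.132).

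Of 25 NF-kB subunits, inhibitors and targets 7 fell, among them the coactivator BCL3 (-0.69), the urokinase PLAU (-0.64) and the inhibitors TNFAIP3 (-0.58) and NFKBIA (-0.35), and the ribonuclease ZC3H12A rose (0.29). Without untreated replicate 1 the falls numbered 4, and ZC3H12A passed in 2 of the 6 leave-one-out fits. Of the NF-kB list 28.0% fell and 4.0% rose, beside 3.25% and 3.46% of all genes. Of 43 interferon-stimulated genes 11 fell and 0 rose, with a median of -0.16. IFIT3, an antiviral protein that works with IFIT1, read 6.38, 6.35 and 6.04 and then 5.63, 5.44 and 5.36 (log2 -0.78, SE 0.11, adjusted p = 0.000247). SAMD9 and SAMD9L, antiviral paralogs, both changed by -0.65, and the transcription factor IRF1 by -0.54. The interferon count was 7 without untreated replicate 2 or without UV-PAPC replicate 2.

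Of 20 transcription factors of epithelial identity 12 fell and 0 rose, with a median of -0.33. GRHL3, a grainyhead factor of barrier formation, read 8.37, 8.34 and 8.12 and then 7.19, 7.29 and 7.23, a 2.06-fold fall (log2 -1.04, SE 0.08, adjusted p = 3.5e-07). ELF3, an epithelial ETS factor, read 8.38, 8.32 and 8.24 and then 7.36, 7.43 and 7.42 (log2 -0.91, SE 0.07, adjusted p = 4.06e-07). GATA3, a factor of skin and hair follicle lineages, read 8.34, 8.43 and 8.40 and then 7.48, 7.49 and 7.68 (log2 -0.84, SE 0.07, adjusted p = 1.85e-06). These 3 genes had treated arrays wholly below the untreated ones. HES1, a Notch target, changed by -0.83, SOX9 by -0.65, ZNF750 by -0.58 and TFAP2A by -0.54, while the ETS factor EHF had a log2 change of 0.05 (adjusted p = 0.791). Of 15 Krüppel-like factors 5 fell and 0 rose: KLF6 (-0.74), KLF7 (-0.70), KLF4 (-0.56), KLF3 (-0.44) and KLF10 (-0.36).

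Structural genes of the epithelium are read here beside the 3.25% of all genes that fell. That share is a low comparator for the adhesion and junction list, whose median untreated signal was 9.64. Of the 4604 genes with the highest mean signal (from 7.82), 279 fell, a larger share than 3.25%. Of 18 keratins KRT23 (-0.79), KRT15 (-0.45) and KRT80 (-0.26) fell (16.7%) and 0 rose, but KRT15 passed in 2 and KRT80 in 0 of the 6 leave-one-out fits. Of 30 genes of the cornified envelope and barrier the lipid transporter ABCA12 (-0.65) and the plakophilin PKP2 (-0.48) fell (6.67%). Of 23 adhesion and junction genes NECTIN4 (-0.94), TJP1 (-0.39) and ITGB8 (-0.37) fell and CLDN12 (0.48) rose. In 12 of the 23 the UV-PAPC arrays lay wholly below the untreated ones, beside 12.8% of all genes, and ITGB8 did not pass without untreated replicate 2 or UV-PAPC replicate 3. The adhesion count was 7 to 8 falls with a trended and robust variance, among genes above the median signal, after a repeated quantile normalization and after cyclic loess. Other large falls were MACC1, a regulator of the MET receptor gene, from 10.04, 10.22 and 9.91 to 9.01, 9.02 and 9.16, and GALNT5, which starts O-glycans, from 9.95, 10.03 and 9.69 to 9.06, 9.03 and 8.98. Both sets of arrays were apart in each. HCAR2 and HCAR3, near-identical receptors for hydroxy acids that may share probe signal, both changed by -0.79.

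In growth factor and kinase signalling the changes ran both ways. Of 27 MAP kinase phosphatases and feedback genes DUSP1 and IER5 rose and 6 fell, led by DUSP10, a phosphatase of p38 and JNK like DUSP1, from 8.67, 8.84 and 8.61 to 7.74, 7.82 and 7.65 (log2 -0.97, SE 0.09, adjusted p = 2.58e-06). The ERK phosphatase DUSP4 (-0.50) was another, and IER5 did not pass without untreated replicate 2 or UV-PAPC replicate 1. Of 23 AP-1, EGR and MYC family factors JUN (0.53), MXD1 (0.58) and MXI1 (0.32) rose, and JUNB (-0.64), EGR1 (-0.56), EGR3 (-0.39) and FOSL1 (-0.34) fell. Of 14 EGF receptor ligands and receptors epigen, EPGN (0.76), and HBEGF (0.60) rose, and ERBB3 (-0.36), EREG (-0.35) and EGFR (-0.30) fell, ERBB3 in 2 of the 6 leave-one-out fits. In the BMP, TGF-beta and activin pathway BMP4 rose (0.57), the extracellular antagonists FST (-0.87) and NOG (-0.68) fell, as did the target ID1 (-0.46) and the receptor TGFBR2 (-0.37), and 25 of 30 did not pass the test. Of 22 proteases and matrix genes SERPINE2 rose (0.31), and PLAU (-0.64), PLAT (-0.56), ADAMTS6 (-0.50) and MMP9 (-0.32) fell. SERPINE2 and MMP9 each passed in 2 of the 6 leave-one-out fits.

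Receptors for oxidised lipids and genes of lipid metabolism are read here beside the 3.46% of all genes that rose and the 3.25% that fell. Of the receptors 3.23% rose and 3.23% fell, and of the sebaceous lipid genes 4.76% and 2.38%. The share that rose was higher for PPAR targets and fatty acid oxidation (18.2%) and for cholesterol synthesis and uptake (22.2%). Of 31 scavenger, oxidised-lipid and Toll-like receptors TLR4, the endotoxin receptor, rose by 0.79, from 6.91, 6.81 and 6.94 to 7.81, 7.55 and 7.66 (SE 0.12, adjusted p = 0.00057), and TLR3 fell (-0.37), in 3 of the 6 leave-one-out fits. CD36 had a log2 change of -0.06 (adjusted p = 0.765), SCARB1 one of 0.11 (adjusted p = 0.449) and TLR2 one of 0.14 (adjusted p = 0.586). Of 42 genes of sebaceous lipid synthesis and storage the lipid droplet protein PLIN2 (0.67) and the elongase ELOVL5 (0.42) rose and the elongase ELOVL6 fell (-0.38), though not without untreated replicate 2 or UV-PAPC replicate 2. PPARG, the nuclear receptor of sebocyte differentiation, read 8.26, 8.36 and 8.24 and then 7.99, 7.88 and 7.95 (log2 -0.35, adjusted p = 0.00829), while 4 of the 22 PPAR and fatty acid oxidation genes rose, ANGPTL4 by 0.54 and ACSL1 by 0.37 among them. Without UV-PAPC replicate 1 or 3 that count was 2.

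Of 36 genes of eicosanoid and oxidised phospholipid metabolism 3 rose, PTGR1 (0.76), ALOXE3 (0.46) and PTGES3 (0.40), and the acyltransferases LPCAT4 (-0.46) and MBOAT1 (-0.31) fell, MBOAT1 in 2 of the 6 leave-one-out fits. Thus 8.33% of this list rose and 5.56% fell, beside 3.46% and 3.25% of all genes. PTGS2, the inducible cyclooxygenase, had a log2 change of -0.02 (adjusted p = 0.950). In cholesterol synthesis and uptake 6 of 27 rose, the C5 desaturase SC5D by 0.58 and MSMO1 by 0.40 among them, but 1 to 5 did so when an OLR1 siRNA array was left out, MSMO1 in 3 of the 6 such fits. In hypoxia and glycolysis 6 of 28 rose (21.4%), led by ADM, adrenomedullin, from 7.65, 7.60 and 7.66 to 8.84, 8.70 and 8.75 (log2 1.13). HK2 fell (-0.35), which was 3.57% of the list. That count of rises was 2 to 3 whichever of the 6 OLR1 siRNA arrays was left out, HK2 passed in 2 of those fits, and VEGFA had a log2 change of -0.13 (adjusted p = 0.351). Of 8 genes of the aryl hydrocarbon receptor pathway CYP1B1 (-0.95) and TIPARP (-0.34) fell (25.0%) and NQO1 rose (12.5%). CYP1B1, a monooxygenase, moved from 8.50, 8.29 and 8.70 to 7.53, 7.50 and 7.63, while CYP1A1 had a log2 change of -0.14 (adjusted p = 0.439). None of 29 respiratory chain genes passed the test.

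The comparison most like this response was that of cells with scramble siRNA. The group means of the comparisons share no array. Both were tested in the same fit, however, with a common variance estimate for each gene. A gene with a low estimate is more easily called in both, so the shared calls are not independent. With scramble siRNA 492 genes rose (2.67%) and 855 fell (4.64%), 1347 in all (7.31%). Without the scramble untreated replicate 1 the total was 868. Of the OLR1 siRNA rises 348 also rose with scramble, 54.5% of the former and 70.7% of the latter. Of the falls 415 were shared, 69.4% of those with OLR1 siRNA and 48.5% of those with scramble. The number of genes called in opposite directions was 0, and 620 of the 638 rises and 578 of the 598 falls had the same sign with scramble. All 33 rises and 3 falls of at least 2-fold were called with scramble siRNA.

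**Figure D5:**
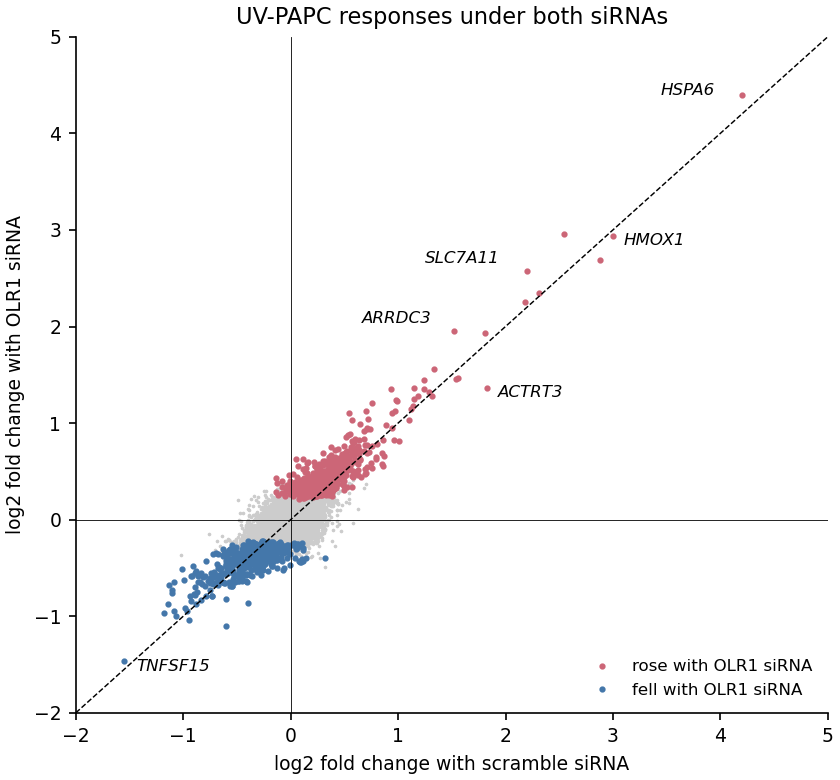
Log2 fold change to UV-PAPC of each of 18417 genes with OLR1 siRNA (vertical) against scramble siRNA (horizontal), with a dashed line of equal change. Red genes rose and blue genes fell with OLR1 siRNA, and the leading genes lie near the line, HSPA6 at 4.40 against 4.20 and TNFSF15 at -1.47 against -1.55.

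The difference between the 2 responses, tested in limma as an interaction, was called for 0 genes, with a lowest adjusted p of 0.52. At an unadjusted p under 0.05 it held 1004 genes, or 5.45%. The 95% interval of a gene's difference had a median half-width of 0.25 on the log2 scale, before any adjustment, and a difference that passes after adjustment over all genes must be larger than that. For HSPA6 the difference of OLR1 minus scramble siRNA was 0.20 (95% interval -0.16 to 0.56), and for HMOX1 it was -0.06 (-0.36 to 0.24). SLC7A11 differed by 0.38 (0.12 to 0.64), JUN by 0.41 (0.20 to 0.62), CACYBP by 0.46 (0.22 to 0.70) and H1-3 by -0.50 (-0.73 to -0.27). These intervals exclude 0 singly, but the differences did not pass after adjustment. For SLC7A11 the siRNAs already differed in untreated cells (limma adjusted p = 0.000467). OLR1 minus scramble siRNA was -0.57 there and -0.19 with UV-PAPC, and for H1-3 it was 0.31 and -0.19.

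The 5 genes with the lowest p for the difference were SNORD12C, STC1, MLLT11, CTSO and PRDM16-DT, each with an adjusted p of 0.52. MLLT11, a small protein first found at a leukaemia breakpoint, read 8.29, 8.19 and 8.38 untreated and 9.49, 9.27 and 9.43 with UV-PAPC under OLR1 siRNA. That was a rise of 1.11 beside 0.55 with scramble. OLR1 minus scramble siRNA was -0.81 for MLLT11 in untreated cells (limma adjusted p = 6.79e-06) and -0.25 with UV-PAPC. STC1, the secreted hormone stanniocalcin 1, had a log2 change of -0.15 with OLR1 siRNA, with overlapping groups, and of -0.76 with scramble. Between the siRNAs STC1 differed by -1.36 in untreated cells (limma adjusted p = 7.07e-08) and by -0.76 with UV-PAPC. For MLLT11 and STC1 the unequal changes thus came with unequal untreated levels. The log2 changes to UV-PAPC, with OLR1 and then scramble siRNA, were 0.21 and -0.32 for CTSO, a cathepsin. They were 0.20 and -0.49 for the small nucleolar RNA SNORD12C and -0.43 and 0.11 for the non-coding PRDM16-DT. Between the siRNAs CTSO, SNORD12C and PRDM16-DT differed by 0.15, -0.10 and -0.15 in untreated cells and by 0.68, 0.59 and -0.70 with UV-PAPC. Among the lists, 7 of 32 proteasome genes rose with OLR1 siRNA and 1 with scramble, beside 3.46% and 2.67% of all genes. The log2 change was higher with OLR1 siRNA in 30 of the 32, beside 64.6% of all genes above the median signal. That also held for 25 of 29 respiratory chain genes and 31 of 37 genes of G1/S and DNA replication. Of 45 clustered histones 17 fell with OLR1 siRNA and 6 with scramble, beside 3.25% and 4.64% of all genes. Of the mitotic kinases and cyclins 9 fell with OLR1 siRNA and 12 with scramble, but the list medians were close, at -0.29 and -0.30. In the same order, the falls numbered 20 and 17 among the spindle, kinetochore and cytokinesis genes. They numbered 11 and 9 among the genes of chromosome structure and mitotic transcription. None of the genes in these lists was called for the difference itself.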

How the data were processed

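RNA of 12 SZ95 samples was measured on Affymetrix whole-transcript arrays after labelling of 100 ng with the WT PLUS kit, per the labels. The authors deposited log2 signals per probe set, used here unchanged. Per the submitters' processing notes the tools were RMA and Affymetrix Expression Console 1.3.1.187, with settings not given in the sources used. RMA tends to compress large fold changes.

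Of 33297 entries, 19460 carried a single gene symbol, 1754 several and 12083 none. The highest-mean probe set was kept for the 769 genes with more than 1, so that 18417 genes were tested and 14880 entries were not. The probe annotation may be old, and 31 symbols were not matched to current records.

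The 4 group means were fitted to the 12 arrays with limma 3.58.1 in R 4.3.3 (default eBayes, 8 residual and 7.66 prior degrees of freedom), two-sided, with Benjamini-Hochberg adjustment over all genes at 0.05. "Rose" and "fell" refer to this test. The fit was tested on simulated data. Nothing in the labels says that replicates were separate cultures, so a p-value measures only how these samples spread, which may be technical. Precision is limited by the number of arrays.

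The members and lists were chosen with earlier results of these data known. The 46 gene lists and 6 marker lists held 1258 entries, of which 1159 were measured (1111 distinct genes). They are described by counts and medians and were not tested as sets. Genes named are OLR1, the 20 highest and 20 lowest log2 changes among genes past the threshold whose groups did not overlap (small RNAs, non-coding, antisense and uncharacterised loci left out), the 5 lowest p for the difference, and list members, led by the largest changes, with well-known members that did not pass the test. Promoters are from RefSeq (GRCh38.p14), without a genome. The alternatives were array weights, trend and robust eBayes, genes above the median signal, the mean of probe sets, centring on array medians, repeated quantile normalization, cyclic loess, the 6 arrays alone, a replicate block and each array left out. The plots were made in Python 3.11.15 with matplotlib 3.10.9.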

Additional observations from a re-analysis of the deposited data

How the results depend on the processing

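Leaving out each array of the comparison in turn gave 865 to 1040 genes past the threshold for the OLR1 siRNA response, 422 to 577 rises and 390 to 517 falls, and 868 to 1126 genes for the scramble response. Of the rises 362 and of the falls 305 were called in all 6 of these fits. Under the other alternatives the OLR1 siRNA count lay between 1013 (its 6 arrays alone) and 1533 (trend and robust eBayes), and 0 genes were called for the difference in any of them. Centring arrays on their medians gave 690 rises and 548 falls. OLR1 was lower with its siRNA by -0.95 to -1.36 in untreated cells and by -1.21 to -1.56 with UV-PAPC when an array was left out. For OLR1, the 20 highest rises, the 20 largest falls and the 5 genes with the lowest p for the difference, the 708 values under the alternatives kept their direction and their side of the threshold. Those rises and falls were picked from these same arrays for large changes without overlap, and no alternative called a difference. Their stability therefore says little about genes not chosen in this way. Of the 276 called members of the gene and marker lists, 81 missed the threshold in at least 1 alternative, and 0 were called in the opposite direction. Same-numbered arrays did not deviate together, with correlations of deviations from group means of -0.22 to 0.26, so the numbers were not taken to pair the samples. With the replicate block 1220 genes were called, 634 up and 586 down, 1309 with scramble siRNA and 0 for the difference, and OLR1 kept its log2 differences of -1.19 and -1.40. The share called varied with signal: it was 1.37% of the 4605 genes with the lowest mean signal, up to 4.72, and 12.3% of the 4604 with the highest, from 7.82. The shares of all genes that rose or fell are therefore low comparators for lists of high signal. The G1/S and DNA replication list, with a median untreated signal of 8.79, is an example.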

Other observations

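Small nucleolar RNAs, chosen for description after their values were seen, were outside the rule for named genes. Of 175 tested, 14 rose and 0 fell (3.46% of all genes rose). SNORD14E read 5.99, 6.35 and 6.32 in untreated cells with OLR1 siRNA and 7.70, 7.86 and 7.47 with UV-PAPC, a log2 rise of 1.46 (SE 0.11, limma adjusted p = 4.06e-07) beside 1.54 with scramble siRNA. SNORA29 read 4.80, 5.42 and 5.42 and then 6.47, 6.26 and 6.02, a rise of 1.04. The groups did not overlap for either. SNORD14C (0.58) and SNORA20 (0.64) also rose. As background, SNORD14C and SNORD14E lie in introns of HSPA8, which rose by 0.42, and SNORA20 and SNORA29 in introns of TCP1, a chaperonin subunit gene, which rose by 0.36. The other snoRNAs that rose were SNORD45A, SNORD45B, SNORD45C, SNORD63, SNORA14A, SNORA14B, SNORA15, SNORD7, SNORA69 and SNORD34, by 0.28 to 0.59. With scramble siRNA SNORA14A alone of these was called, and their log2 changes ran from -0.13 (SNORD34) to 0.34 (SNORA14A). The difference between the siRNAs was called for 0 genes.

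The treated arrays were not equal. Of the 33 genes that rose at least 2-fold, 29 had their highest signal in UV-PAPC replicate 1, 3 in replicate 2 and 1 in replicate 3, with median excesses over the untreated mean of 1.43, 1.35 and 1.29. Of the 69 genes that fell at least 1.5-fold, 20, 36 and 13 were lowest in replicates 1, 2 and 3, with medians of -0.70, -0.75 and -0.61.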
